A study of Mus musculus with 12 samples.

Results

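SRT was set against SRT-like radiotherapy in CD8+ T cells sorted from mouse tumours, with 3 samples of each mode and 6 of the series' 12 samples in all. The members are the samples whose label names either treatment, and every one of the 773 probes was compared. SRT: MC38 tumours in C57BL/6J mice given 20 Gy in the mode called SRT. SRT-like: the same tumour and strain given the same dose in the mode called SRT-like. The other samples, 3 of CRT (20 Gy) and 3 Nontreated, entered the shared estimate of spread and appear where their level places a gene. The labels do not spell out the abbreviations, and they give no schedule of fractions, no interval between radiotherapy and sorting, no age or sex of the mice and no batch. Dose, tumour line, strain and the tumour size at the start of radiotherapy, 40 to 100 mm3, were shared by both modes. The sample numbers, 2, 3 and 8 for SRT and 10, 11 and 12 for SRT-like, do not interleave. Anything that ran along those numbers, or an unlike schedule or interval, cannot be told apart from the mode.

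MC38 is a colon carcinoma line that grows in C57BL/6 mice after implantation, so the tumours are transplants of 1 line and not tumours that arose in place. Leukocytes were enriched through CD45 before CD8+ T cells were sorted, and the RNA in their lysates was counted on the NanoString nCounter platform with a mouse panel on immune exhaustion. The instrument counts barcoded probes bound to single RNA molecules, without amplification. Whether the samples of one mode are separate mice is not stated in the labels, so a p-value here measures no more than the spread among these samples, and that spread may be technical.

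CD8+ T cells that meet tumour antigen release cytokines and chemokines, kill through perforin and granzymes, and with lasting stimulation gain inhibitory receptors such as PD-1, a state called exhaustion. A smaller pool keeps the transcription factor TCF-1 and renews the response. Radiation can release antigen and interferon in a tumour, and it also kills lymphocytes in the field, so the cells sorted afterwards can be survivors or later arrivals.

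No gene differed between SRT and SRT-like past the threshold. Of the 773 probes, 0 (0%) had an adjusted p under 0.05 in limma, with Benjamini-Hochberg adjustment over all probes, and the smallest adjusted p was 0.718, that of Ccl22. At an unadjusted p under 0.05 there were 44 probes (5.69%), 32 of them higher in SRT (4.14%) and 12 lower (1.55%). Run on the molecules counted, limma's voom gave 0 calls too, and 52 probes had an unadjusted p under 0.05. The values of the SRT and SRT-like samples did not overlap for 81 probes (10.5%), 59 higher in SRT (7.63%) and 22 lower (2.85%). Genes are therefore described below by their values and intervals, and none of them is called changed.

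The intervals show how large a difference could have gone unseen. A probe was taken as above background where it exceeded, in all 3 samples of SRT or all 3 of SRT-like, the mean plus 2 SD of 32 panel probes for genes of other tissues or a virus. For the 461 probes that did, the median half-width of the 95% interval of the difference was 0.49 on the log2 scale, and in 375 of them (81.3%) the whole interval lay within 1 log2 unit of 0. The remaining 86 of these probes could differ by 1 log2 unit or more within their intervals. For the 312 probes not above background the half-width was 1.03, and only 33 intervals (10.6%) lay within that range. The intervals are for 1 probe at a time and are not adjusted for the number of probes.

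The sign of the difference went with the level of the gene. Among probes with a mean log2 value under 4, 190 were higher in SRT and 61 lower, with a median difference of 0.31. Between 8 and 10 the counts were 32 higher and 126 lower, with a median of -0.11. Above 10, 2 were higher and 50 lower, with a median of -0.18. Of the 312 probes not above background, 242 (77.6%) were higher in SRT, and of the 461 above it 302 (65.5%) were lower. Over all probes the median difference was 0.01, and over the probes above background it was -0.07. The background moved the same way, with a mean of 10.5, 13.5 and 13.9 normalized molecules per background probe in SRT replicates 1 to 3, against 9.14, 10.4 and 10.7 in SRT-like replicates. SRT samples held 259964, 271874 and 161752 molecules, against 421066, 299545 and 267514 in SRT-like samples; the groups overlap, as SRT replicate 2 held more than SRT-like replicate 3. The part of background and depth in the higher values of low probes was not tested. Each list median given below, and each count of genes higher or lower, is to be read beside these shifts.

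**Figure D1:**
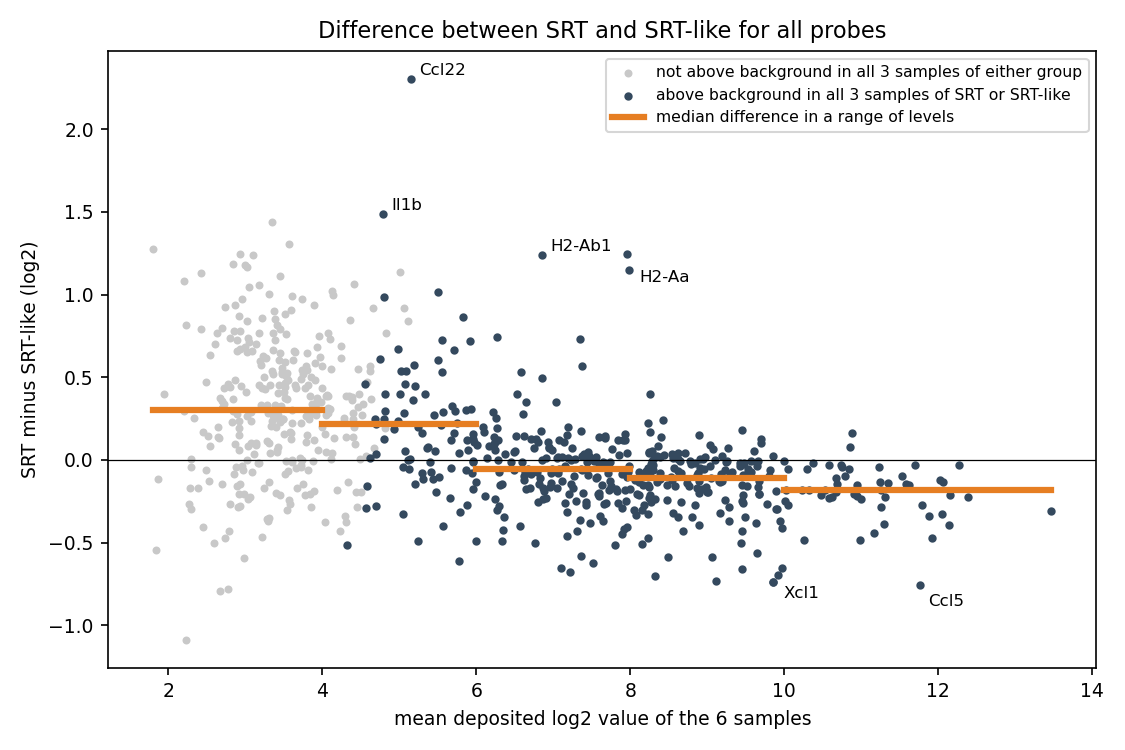
Each point is a probe, with the mean deposited log2 value of the 6 samples on the x axis and the log2 difference, SRT minus SRT-like, on the y axis. The orange bars, the medians in 5 ranges of level, step down with level, with 0.31 under a level of 4 and -0.18 above 10; Ccl22 stands highest at 2.31.

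The sorted cells of both modes carried the genes of CD8+ T cells at overlapping levels. Summed over Cd3d, Cd3e, Cd3g, Cd8a and Cd8b1, the normalized molecules were 11040, 13070 and 9866 in SRT, against 13810, 11600 and 11850 in SRT-like, and the groups overlap. Cd8a differed by -0.24 (95% interval -0.59 to 0.11). None of the 6 samples was above background for Cd4, for Ms4a1 of B cells, or for Csf1r and Cd14 of monocytes. The spread of probes above background was wider within SRT, with a median SD of 0.26, than within SRT-like, with 0.19, and the SD was larger in SRT for 297 of 461 probes. SRT replicate 3, the shallowest of the 6 samples, correlated with the other SRT samples across these probes at r = 0.966 and 0.962, below its correlations of 0.972, 0.975 and 0.972 with the SRT-like samples. Probes are not independent replicates. Many differences rest on single samples: of the 108 named genes, 76 moved by over 1.5 times when 1 of the 6 samples was left out. The left-out range given for a gene or for a list's median below is the lowest and the highest value over these 6 fits.

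Chemokine ligands held the largest differences in both directions. They are secreted proteins that draw cells bearing matching receptors, and 11 were measured, 5 of them above background. None of the 11 passed the test; 7 were higher in SRT and 4 lower, with a median of 0.23, which turns to -0.04 under quantile normalization and to -0.03 without SRT-like replicate 1, and is 0.02 without SRT replicate 3 (left-out range -0.029 to 0.47). Of the 5 above background, Ccl22 was higher in SRT, and Ccl5, Xcl1, Ccl4 and Ccl3 were lower.

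Ccl22, a ligand of CCR4 made mainly by dendritic cells and macrophages and able to draw regulatory T cells, had log2 values of 5.87, 7.03 and 6.01 in SRT, against 4.00, 4.24 and 3.76 in SRT-like. These stand for 70, 145 and 41 molecules counted in SRT, against 26, 20 and 14 in SRT-like. Every SRT sample lay above every SRT-like sample, and SRT-like was above background in 0 of 3 samples, so its level there is only a bound. The difference was 2.31 ± 0.51 (SE; 95% interval 1.18 to 3.43; unadjusted p = 0.000929 and adjusted p = 0.718 in limma), and 1.32 with all values under the highest background level of any sample raised to that level. The adjusted p for Ccl22 ranged between 0.0826 and 0.999 over the 16 other settings, and the difference between 1.32 and 2.55. CRT samples had 6.12, 5.28 and 5.03 and Nontreated samples 5.93, 3.82 and 4.71, so 1 sample of each lay within the SRT range.

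Ccl5, which encodes RANTES, a chemokine that activated and memory CD8+ T cells store and release, had log2 values of 11.16, 11.50 and 11.47 in SRT, against 11.86, 12.32 and 12.22 in SRT-like. All 3 SRT samples lay below all 3 SRT-like samples, and Nontreated averaged 11.61, between them. The difference was -0.76 ± 0.22 (SE; 95% interval -1.24 to -0.27; adjusted p = 0.838 in limma), and it lay between -0.89 and -0.50 over the other settings. Xcl1, the ligand that CD8+ T cells use to draw cross-presenting dendritic cells, had values of 9.62, 9.34 and 9.50 in SRT, against 9.93, 10.50 and 10.25 in SRT-like. These groups did not overlap either, with a difference of -0.74 (95% interval -1.37 to -0.11). Ccl4, a chemokine that activated T cells and macrophages release, had 9.69, 9.53 and 9.22 in SRT, against 9.31, 10.62 and 10.73 in SRT-like. Its groups overlap because SRT-like replicate 1 lay within the SRT range, and its difference of -0.74 was -1.19 without that sample (left-out range -1.19 to -0.48). Ccl3, a related inflammatory chemokine, was named after values were seen; it differed by -0.50 (95% interval -1.53 to 0.53), and by -0.91 without SRT-like replicate 1 and -0.25 without SRT-like replicate 2.

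Stem-like and memory genes mark the T cells that keep the capacity to renew the response. Of the 15 measured, 0 passed, 7 were higher in SRT and 8 lower, and the median was -0.18, which turns to 0.01 under quantile normalization and to 0.04 without SRT replicate 1. Tcf7, which encodes TCF-1, had values of 8.22, 7.95 and 9.22 in SRT, against 7.90, 8.02 and 8.26 in SRT-like. Its groups overlap, and the difference of 0.40 (95% interval -0.34 to 1.14) was 0.02 without SRT replicate 3 and 0.66 without SRT replicate 2. Lef1, a partner of TCF-1, had 6.78, 7.04 and 7.48 in SRT, against 6.62, 6.56 and 6.64 in SRT-like, without overlap, and differed by 0.49 (95% interval -0.16 to 1.14, left-out range 0.30 to 0.65). Slamf6, a surface marker of the progenitor pool, differed by 0.29 (95% interval -0.17 to 0.75, left-out range 0.12 to 0.44). Ccr7, the chemokine receptor that guides T cells to lymph nodes, differed by 0.17 (95% interval -0.46 to 0.79, left-out range 0.039 to 0.39). Il7r, the receptor for the survival cytokine IL-7, differed by -0.30, and by 0.04 without SRT replicate 1 and -0.62 without SRT replicate 3. Foxo1, a transcription factor of quiescent and memory T cells, differed by -0.33 (95% interval -0.73 to 0.07, left-out range -0.49 to -0.21).

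**Figure D2:**
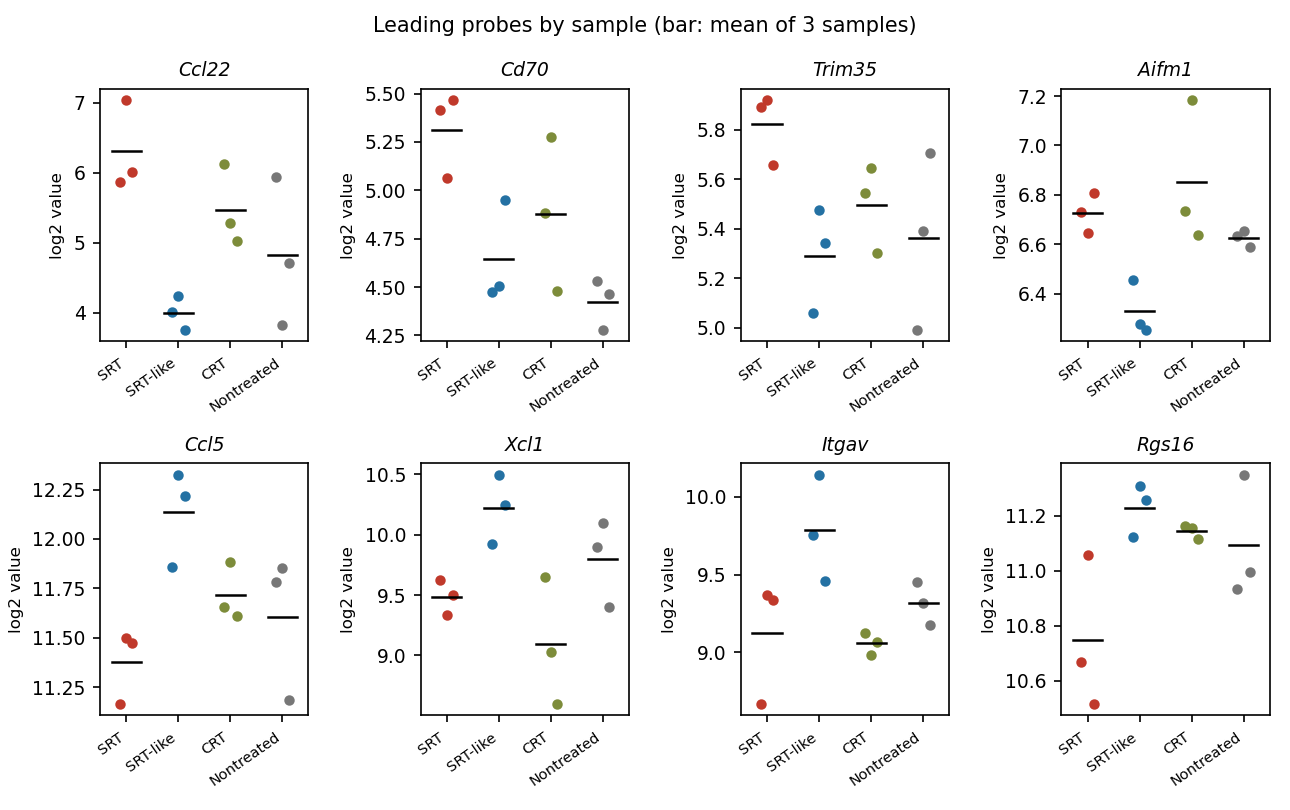
Deposited log2 values (y axis) of 8 leading probes in each sample of SRT, SRT-like, CRT and Nontreated, with a bar at the mean of 3 samples. Ccl22, Cd70, Trim35 and Aifm1 are higher in all SRT samples than in all SRT-like samples, and Ccl5, Xcl1, Itgav and Rgs16 lower. The 8 shown are among the 81 of 773 probes (10.5%) whose values do not overlap between the modes.

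Genes of tissue residency were mostly lower in SRT, as were 302 (65.5%) of all 461 probes above background. Among 11 residency and adhesion genes, 0 passed, 3 were higher in SRT and 8 lower, with a median of -0.22 that kept its sign under the 3 other scalings. It was -0.45 without SRT replicate 3 and -0.14 without SRT-like replicate 1. Itgav, the integrin alpha V subunit that pairs with several beta chains and helps free active TGF-beta, had 8.67, 9.37 and 9.34 in SRT, against 9.75, 10.14 and 9.46 in SRT-like. The groups did not overlap, though SRT replicates 2 and 3 came within a small gap of SRT-like replicate 3; the difference was -0.66 ± 0.23 (SE), and -0.43 without SRT replicate 1. Zfp683, which encodes Hobit, a transcription factor of resident T cells in mice, had 5.17, 5.66 and 5.56 in SRT, against 6.09, 6.44 and 5.71 in SRT-like. It did not overlap between the modes, with a difference of -0.61 (95% interval -1.50 to 0.27, left-out range -0.80 to -0.43), and CRT was lower at 4.25. Itgae, the CD103 chain that binds E-cadherin on epithelium, had 5.83, 6.24 and 7.46 in SRT, against 6.95, 7.29 and 6.81 in SRT-like. Its difference of -0.50 was -0.98 without SRT replicate 3 and -0.16 without SRT replicate 1. Cd69, an early activation marker that also holds cells in tissue, differed by -0.52 (95% interval -1.29 to 0.26), and by -0.84 without SRT-like replicate 1 and -0.27 without SRT-like replicate 3. Icam1, the ligand of LFA-1, differed by -0.62 (95% interval -1.25 to 0.01, left-out range -0.87 to -0.44). Cxcr6, the receptor that keeps T cells near CXCL16, differed by -0.22, and by 0.0061 without SRT replicate 3 and -0.41 without SRT replicate 2. Zfp683, Itgae and Cd69 were named after values were seen.

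Genes that follow T cell stimulation were mostly lower in SRT, by amounts within the replicate spread. So were 302 (65.5%) of all 461 probes above background. Of 7 AP-1 and immediate early genes, 0 passed, 6 were lower and 1 higher, with a median of -0.37. That median kept its sign under the other scalings, and was -0.71 without SRT replicate 3, -0.65 without SRT-like replicate 1, -0.16 without SRT-like replicate 3 and -0.10 without SRT replicate 1. Averaged over the list, the log2 values were 8.50, 8.82 and 9.09 in SRT, against 8.71, 9.43 and 9.41 in SRT-like, so SRT-like replicate 1 fell among the SRT samples. Jund, an AP-1 subunit, had 9.10, 9.34 and 9.66 in SRT, against 9.54, 10.23 and 10.02 in SRT-like, with overlap, and differed by -0.56 (95% interval -1.06 to -0.07, left-out range -0.76 to -0.41). Jun, the partner of FOS in AP-1, had 6.73, 6.45 and 7.12 in SRT, against 6.63, 7.86 and 7.77 in SRT-like. Its difference of -0.65 was -1.05 without SRT-like replicate 1 (left-out range -1.05 to -0.44). Nr4a1, a nuclear receptor induced by T cell receptor signals, had 9.29, 9.75 and 9.89 in SRT, against 9.53, 10.73 and 10.63 in SRT-like, and its difference of -0.65 was -1.03 without the same sample (left-out range -1.03 to -0.44).

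All 9 NF-kB genes were lower in SRT and 0 passed, with a median of -0.27 that kept its sign under the other scalings, at -0.07 under quantile normalization, and was -0.42 without SRT-like replicate 1 and -0.14 without SRT-like replicate 2. Nfkbia, the inhibitor that NF-kB itself induces, differed by -0.48 (95% interval -1.14 to 0.17), and by -0.79 without SRT-like replicate 1 and -0.25 without SRT-like replicate 3. Nfkbie, a related inhibitor, had 7.13, 7.35 and 7.38 in SRT, against 7.39, 7.96 and 7.66 in SRT-like, a difference of -0.38 without overlap (left-out range -0.52 to -0.23). Tnfaip3, the A20 enzyme that shuts the pathway off, differed by -0.34 (95% interval -0.75 to 0.06, left-out range -0.46 to -0.17) and by -0.05 under quantile normalization. In T cell receptor signalling, 18 of 19 genes were lower and 0 passed, but the median of -0.15 turns to 0.03 under quantile normalization and is 0.00 when samples are centred on abundant probes (left-out range -0.23 to -0.068). Over the SRT and SRT-like samples, the NF-kB genes averaged 8.69 to 9.34 and the T cell receptor signalling genes 9.61 to 10.02. At levels of 8 to 10, 126 of all 158 probes were lower in SRT, and above 10 it was 50 of 52. Cd6, a co-receptor that tunes that signal, and Malt1, a protease that links it to NF-kB, differed by -0.43 and -0.38. Without SRT replicate 3 they differed by -0.67 and -0.61, and without SRT replicate 1 Malt1 differed by -0.11. Rgs16, a brake on G protein signals of chemokine receptors, had 10.67, 11.06 and 10.51 in SRT, against 11.12, 11.31 and 11.26 in SRT-like, without overlap, and differed by -0.48 (95% interval -0.89 to -0.07, left-out range -0.64 to -0.37).

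Cytotoxic and effector genes gave a median of -0.22 (left-out range -0.33 to -0.094) that kept its sign under the other scalings, at -0.08 under quantile normalization, with 19 of 22 lower in SRT, 3 higher and 0 past the threshold. Above background, 18 of the 20 list members were lower, against 302 of all 461 probes (65.5%). Gzmb, granzyme B, had 10.48, 10.26 and 10.78 in SRT, against 10.52, 10.58 and 11.09 in SRT-like. Prf1, perforin, had 10.01, 9.38 and 9.89 in SRT, against 9.53, 9.72 and 9.64 in SRT-like. Ifng, interferon gamma, had 11.70, 10.43 and 11.18 in SRT, against 11.00, 11.88 and 11.60 in SRT-like. The groups overlap for all of these, with differences of -0.22 for Gzmb (95% interval -0.95 to 0.51), 0.13 for Prf1 (-0.39 to 0.64) and -0.39 for Ifng (-1.16 to 0.38). The left-out ranges were -0.36 to -0.042 for Gzmb, 0.0048 to 0.32 for Prf1 and -0.69 to -0.054 for Ifng, and Gzmb differed by -0.0072 under quantile normalization. Tnf, the cytokine TNF, had 6.93, 6.96 and 7.31 in SRT, against 6.81, 8.12 and 8.01 in SRT-like. SRT-like replicate 1 was the lowest of the 6 samples for Tnf, and the difference of -0.58 was -0.996 without it and -0.34 without SRT-like replicate 2. Gzma, granzyme A, had 7.96, 8.21 and 10.07 in SRT, against 9.02, 9.83 and 9.58 in SRT-like. SRT replicate 3 was the highest of the 6 for Gzma and the other SRT samples were the lowest; the difference of -0.73 was -1.39 without SRT replicate 3 and -0.34 without SRT replicate 1.

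Inhibitory receptors are the genes for which exhaustion panels are built, and none of the 18 measured here passed the test. In SRT 15 were lower and 3 higher, with a median of -0.19 that kept its sign but shrank to -0.03 under quantile normalization and to -0.05 without SRT replicate 1 (left-out range -0.30 to -0.046). Of the 17 members above background 15 were lower, against 302 of all 461 such probes (65.5%). Pdcd1, which encodes PD-1, had 11.30, 11.94 and 11.82 in SRT, against 12.19, 12.39 and 11.89 in SRT-like, and only SRT-like replicate 3 lay within the SRT range. Its difference was -0.47 (95% interval -1.03 to 0.08), and -0.28 without SRT replicate 1 and -0.20 under quantile normalization. Havcr2, which encodes TIM-3, had 9.03, 9.38 and 8.88 in SRT, against 9.32, 9.45 and 9.62 in SRT-like, with overlap and a difference of -0.37 (95% interval -0.80 to 0.06, left-out range -0.51 to -0.26). Lag3, a receptor for MHC class II, and Tigit, a receptor for CD155, differed by -0.20 (95% interval -0.81 to 0.40) and -0.18 (-0.66 to 0.29), and both turn positive under quantile normalization, at 0.02 and 0.04. Their left-out ranges were -0.36 to -0.12 and -0.38 to -0.0054. Klrc1, the NKG2A chain, had 11.78, 12.03 and 11.85 in SRT, against 12.22, 12.29 and 12.13 in SRT-like, without overlap; its difference of -0.33 turns to 0.06 under quantile normalization. Btla, the receptor for HVEM, went the other way, with 5.76, 5.50 and 6.49 in SRT, against 5.53, 4.56 and 5.47 in SRT-like and a difference of 0.73 (95% interval 0.01 to 1.44), which was 0.44 without SRT replicate 3 and 0.41 without SRT-like replicate 2.

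**Figure D3:**
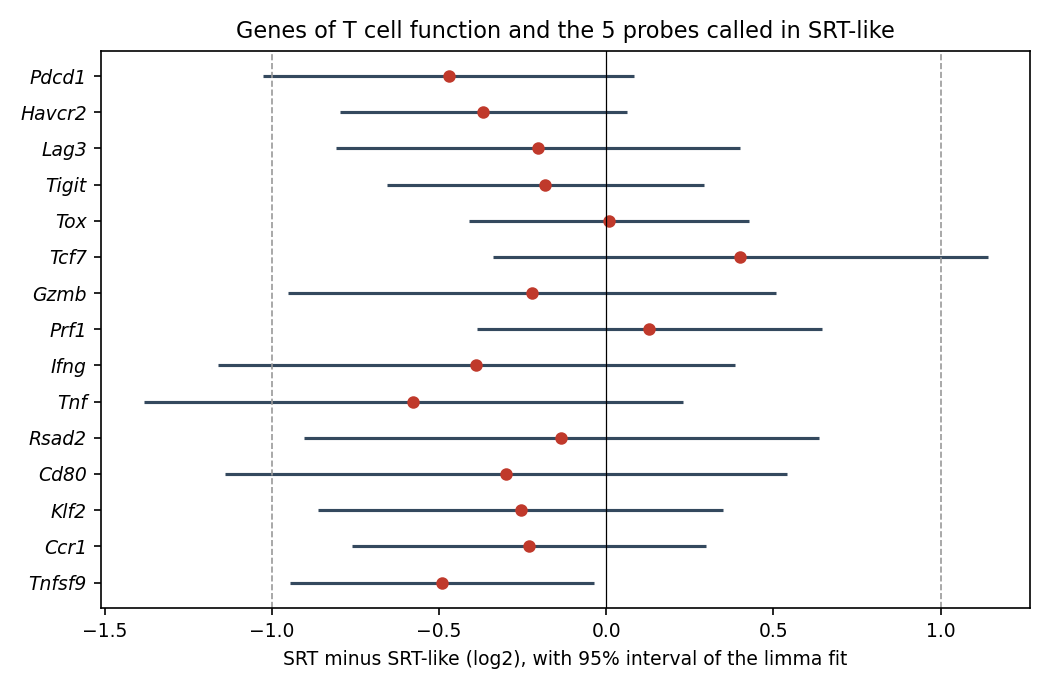
Log2 difference, SRT minus SRT-like (red points), with the unadjusted 95% interval of the limma fit (lines) for 10 genes of T cell function and for the 5 probes that passed the test in SRT-like against Nontreated. Dashed lines mark 1 log2 unit. Of the 15 intervals only that of Tnfsf9, -0.95 to -0.04, leaves out 0. Tnfsf9 is 1 of the 5 probes, which were picked by SRT-like values that also enter the difference shown.

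Transcription factors of exhausted and effector cells had a median of -0.22 (left-out range -0.37 to -0.21) that kept its sign under the other scalings, with 11 of 13 lower, 2 higher and 0 past the threshold. Among the 12 above background 10 were lower, and among all 461 such probes 302 (65.5%). Tox, a driver of the exhausted state, had 7.45, 7.52 and 6.90 in SRT, against 7.28, 7.14 and 7.43 in SRT-like, with a difference of 0.01 (95% interval -0.41 to 0.43, left-out range -0.10 to 0.20). Irf8, a transcription factor of effector T cells and dendritic cells, had 9.72, 9.94 and 9.62 in SRT, against 10.15, 10.18 and 10.05 in SRT-like, without overlap, and differed by -0.37 (95% interval -0.73 to -0.0037, left-out range -0.46 to -0.30). Prdm1, which encodes BLIMP-1 and drives terminal effector fate, differed by -0.43 (95% interval -0.89 to 0.03, left-out range -0.59 to -0.25). Eomes, a T-box factor of memory and exhausted cells, differed by -0.23, and by 0.0023 without SRT replicate 3 (left-out range -0.42 to 0.013). Gata3, a zinc finger factor of T helper 2 cells that CD8+ T cells also use, had 7.59, 7.64 and 7.77 in SRT, against 8.05, 8.38 and 7.92 in SRT-like, without overlap and with a difference of -0.45 (95% interval -0.89 to -0.01, left-out range -0.55 to -0.32). Rora, a nuclear receptor, and Rara, the retinoic acid receptor alpha, differed by -0.70 and -0.68, with overlap in both and left-out ranges of -0.93 to -0.46 and -0.91 to -0.53.

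Cytokine signalling genes leaned the same way, with 14 of 17 gamma chain and JAK-STAT genes lower in SRT, 3 higher, 0 passed and a median of -0.20 that kept its sign under the other scalings (left-out range -0.27 to -0.093). Above background, 13 of the 15 list members were lower, against 302 of all 461 probes (65.5%). Stat4, which carries the signal of IL-12, had 8.63, 8.75 and 8.73 in SRT, against 9.37, 9.05 and 8.86 in SRT-like, without overlap and with a difference of -0.39 (95% interval -0.78 to -0.0044, left-out range -0.51 to -0.25). Cish, a brake on cytokine and T cell receptor signals, differed by -0.59 (95% interval -1.20 to 0.03, left-out range -0.80 to -0.40). Il2ra, the high-affinity chain of the IL-2 receptor, differed by -0.41 (95% interval -0.94 to 0.12, left-out range -0.58 to -0.29). Il10ra, the receptor chain for IL-10, had 8.46, 8.43 and 8.51 in SRT, against 8.80, 8.79 and 9.11 in SRT-like, without overlap, and differed by -0.43 (95% interval -0.79 to -0.07, left-out range -0.48 to -0.33). Nontreated averaged 8.12 for Il10ra, below both modes. Tgfb1, which encodes TGF-beta 1, differed by -0.44 (95% interval -0.93 to 0.05, left-out range -0.64 to -0.30). The median of the 7 TGF-beta genes, -0.11, turns to 0.04 when samples are centred on abundant probes (left-out range -0.15 to 0.12).

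Co-stimulatory genes were divided, with 8 of 18 higher in SRT, 10 lower, 0 passed and a median of -0.01 that turns positive under quantile normalization and abundant-probe centring, at 0.10 and 0.14 (left-out range -0.067 to 0.099). Cd70, the ligand of CD27, which activated lymphocytes and dendritic cells carry, had 5.41, 5.06 and 5.46 in SRT, against 4.47, 4.50 and 4.95 in SRT-like. Every SRT sample was higher, and the difference was 0.67 ± 0.23 (SE; 95% interval 0.16 to 1.18; adjusted p = 0.838 in limma). The counts behind it were low, with 51, 37 and 28 molecules in SRT, against 36, 24 and 32 in SRT-like. Tnfsf9, the ligand of 4-1BB, had 5.10, 4.98 and 4.90 in SRT, against 5.06, 5.73 and 5.68 in SRT-like, and only SRT-like replicate 1 overlapped the SRT range; its difference was -0.49 (left-out range -0.71 to -0.37).

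Genes of MHC class II were the list with the largest median difference. These molecules show peptides to CD4+ T cells and belong mainly to dendritic cells, macrophages and B cells, while mouse CD8+ T cells carry little of them. All 8 measured genes were higher in SRT, 6 of them without overlap, and 0 passed the test. Of all 773 probes, 59 (7.63%) were higher in SRT without overlap. The list's median was 0.65, and 0.56, 0.37 and 0.80 under median centring, quantile normalization and abundant-probe centring (left-out range 0.49 to 0.81). Of the 8, 5 were above background, and H2-DMb1 only through SRT, with 3 SRT and 2 SRT-like samples above it. Among all probes not above background, 77.6% were higher in SRT.

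H2-Aa and H2-Eb1, which encode the alpha chain of the I-A and the beta chain of the I-E molecule, both stood higher in every SRT sample than in every SRT-like sample, so their promoters are shown. Each is the 250 bases before the start, from RefSeq, at chr17:34287824-34288073 on the - strand for H2-Aa and chr17:34305617-34305866 on the + strand for H2-Eb1 (GRCm38.p6). Capitals mark CTGATTGG, a form of the Y box that NF-Y binds in MHC class II promoters, which a search of both strands found 51 to 44 bases before the start of H2-Aa and 62 to 55 bases before that of H2-Eb1. It occurs in 1258 of 32851 RefSeq promoters of this length, or 3.83%, and a match is a description of the letters only.
H2-Aa: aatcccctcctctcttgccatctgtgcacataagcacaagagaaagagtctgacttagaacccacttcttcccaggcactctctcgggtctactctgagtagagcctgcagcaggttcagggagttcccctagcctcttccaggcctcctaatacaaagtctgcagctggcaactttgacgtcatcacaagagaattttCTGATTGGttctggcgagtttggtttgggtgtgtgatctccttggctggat
H2-Eb1: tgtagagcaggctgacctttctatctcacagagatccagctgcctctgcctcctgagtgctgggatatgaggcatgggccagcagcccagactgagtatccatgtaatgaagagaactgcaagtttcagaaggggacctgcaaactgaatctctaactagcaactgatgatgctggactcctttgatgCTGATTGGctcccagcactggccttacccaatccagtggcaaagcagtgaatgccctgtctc

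H2-Aa had log2 values of 8.57, 9.15 and 7.95 in SRT, against 7.54, 7.44 and 7.24 in SRT-like. All SRT samples were higher, with a difference of 1.15 ± 0.57 (SE; 95% interval -0.11 to 2.41; adjusted p = 0.887 in limma). H2-Ab1, the beta chain of I-A, had 7.18, 8.40 and 6.85 in SRT, against 6.14, 6.74 and 5.83 in SRT-like. It did not overlap either; its difference of 1.24 (95% interval -0.68 to 3.16) was 0.78 without SRT replicate 2. H2-Eb1 had 5.76, 6.47 and 5.79 in SRT, against 4.63, 5.44 and 4.90 in SRT-like, without overlap and with a difference of 1.01 (95% interval -0.25 to 2.28, left-out range 0.78 to 1.24). H2-DMb1, part of the H2-M molecule that loads peptides, differed by 0.54, and H2-DMa, its partner chain, by 0.29, with left-out ranges of 0.27 to 0.69 and 0.042 to 0.45. H2-Ob, a chain of the H2-O molecule that restrains H2-M, differed by 0.77 and was above background in 2 of 3 SRT and 2 of 3 SRT-like samples. H2-DMb2, another H2-M beta chain, and Ciita, the master activator of the class II genes, were above background in 0 of the 6 samples.

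SRT-like had the lowest mean of the 4 groups for H2-Aa, H2-Ab1 and H2-Eb1. Nontreated had a lower mean than SRT-like for H2-DMb1 (4.66 against 4.75), H2-DMa (5.30 against 5.58) and H2-Ob (4.08 against 4.44). H2-Aa was 9.41, 8.72 and 6.84 in CRT and 8.86, 8.19 and 7.80 in Nontreated, so CRT replicate 3 lay below every SRT-like sample while all Nontreated samples lay above them. The sum of 4 antigen-presenting markers, H2-Aa, H2-Ab1, H2-Eb1 and Itgax, was 635.7, 1082 and 485.6 normalized molecules in SRT, against 391.9, 432.2 and 307.2 in SRT-like. It was 1228, 710 and 217.8 in CRT and 852.5, 509.6 and 377.2 in Nontreated. Itgax, which encodes CD11c and is also found on activated CD8+ T cells, went the other way, with a difference of -0.43 (95% interval -1.01 to 0.15). In such bulk samples, fewer cells of a type and less RNA per cell cannot be told apart, and the part of other cells in the sort was not tested.

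**Figure D4:**
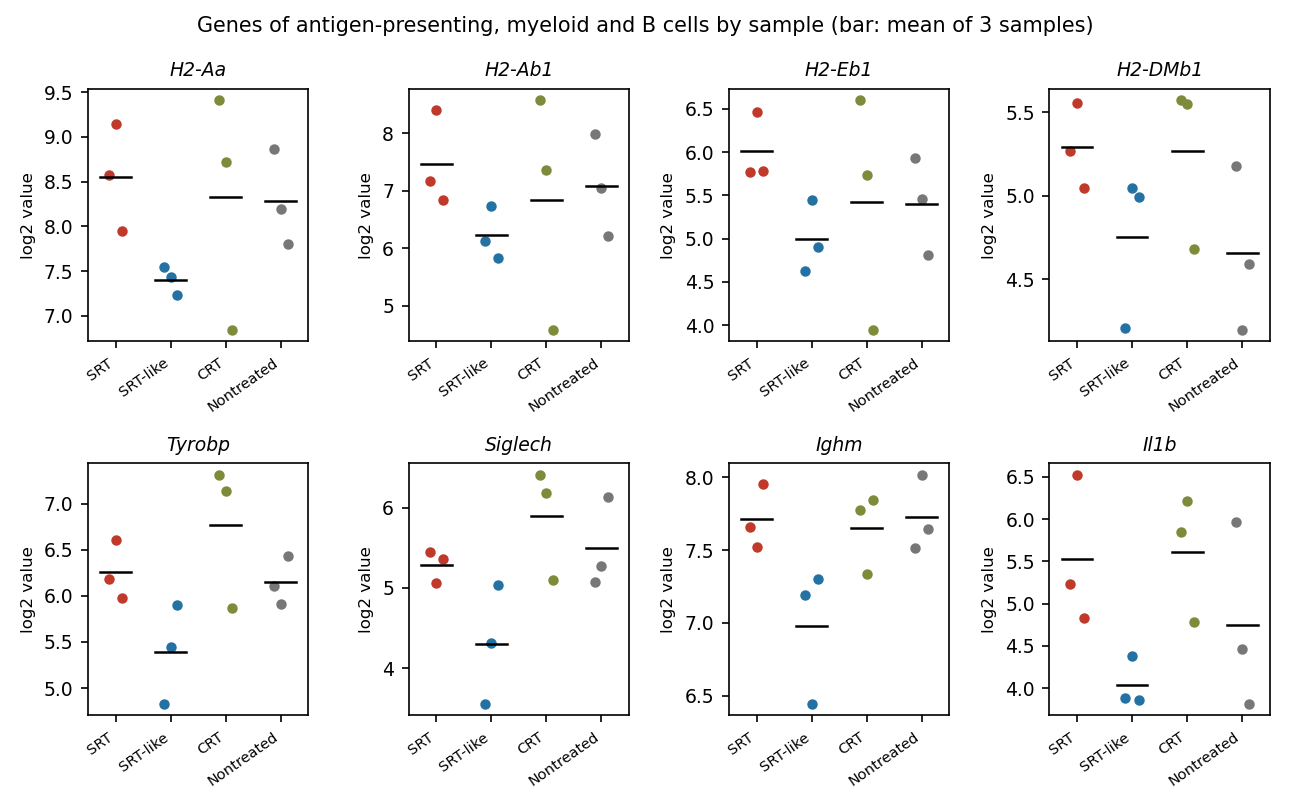
Deposited log2 values (y axis) of 4 MHC class II genes and 4 genes of myeloid, dendritic and B cells in each sample of SRT, SRT-like, CRT and Nontreated, with a bar at the mean of 3 samples. The 8 genes shown are among the 59 of 773 probes (7.63%) for which every SRT sample lies above every SRT-like sample. Genes of the same cell types that overlap or lie the other way, such as Igkc, Itgax and Cd68, are not shown. For H2-Aa the SRT samples span 7.95 to 9.15 and the SRT-like samples 7.24 to 7.54.

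Most listed genes of macrophages, monocytes and B cells stood higher in SRT as well, but most of them were not above background. Of all 312 probes not above background, 242 (77.6%) were higher in SRT. Of 13 macrophage and monocyte genes, 11 were higher, 2 lower and 0 passed, with a median of 0.54 that kept its sign under the other scalings, but only 4 were above background, 2 of them higher in SRT and 2 lower. Il1b, the inflammatory cytokine IL-1 beta, had 5.23, 6.52 and 4.83 in SRT, against 3.89, 4.38 and 3.86 in SRT-like, and was above background in 3 of 3 SRT and 0 of 3 SRT-like samples. Its difference was 1.49 ± 0.59 (SE), 0.99 without SRT replicate 2, and 0.60 with low values raised to the background level. Tyrobp, the DAP12 adaptor of myeloid and natural killer cells, had 6.19, 6.61 and 5.98 in SRT, against 4.83, 5.44 and 5.90 in SRT-like. It did not overlap, though SRT-like replicate 3 came close to SRT replicate 3, and it differed by 0.87 (95% interval -0.00044 to 1.73, left-out range 0.58 to 1.12). Cd68, a lysosomal protein of macrophages, lay the other way, with 5.93, 5.69 and 5.98 in SRT, against 6.10, 6.03 and 5.99 in SRT-like and a difference of -0.17 (left-out range -0.23 to -0.085). The 4 measured macrophage markers Csf1r, Cd14, Cd68 and Tyrobp summed to 154.8, 168.8 and 145.0 normalized molecules in SRT, against 104.3, 123.9 and 140.1 in SRT-like.

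Siglech, a receptor of plasmacytoid dendritic cells, had 5.44, 5.06 and 5.36 in SRT, against 3.55, 4.31 and 5.04 in SRT-like. Its groups were only just apart, and it was above background in 3 of 3 SRT and 1 of 3 SRT-like samples. The difference of 0.99 was 0.28 with low values raised to background and 0.61 without SRT-like replicate 1. Of 5 dendritic cell genes 0 passed, 2 were higher in SRT, Siglech and Ccl22, and 3 lower, among them Irf8 and Itgax. Their median of -0.05 turns to 0.07 under quantile normalization and to 0.10 with abundant-probe centring (left-out range -0.20 to 0.21). Ighm, the IgM heavy chain of B cells, had 7.66, 7.52 and 7.95 in SRT, against 7.19, 6.44 and 7.30 in SRT-like. It did not overlap and differed by 0.73 (95% interval 0.16 to 1.31), or 0.47 without SRT-like replicate 2. Igkc, the kappa light chain, differed by 0.74 with overlap, and by 0.27 without SRT replicate 2 and 1.15 without SRT replicate 3. Of 10 B and plasma cell genes, 9 were higher in SRT, 1 lower and 0 passed. Only Ighm and Igkc were above background, and 77.6% of all probes not above background were higher in SRT. The list's median of 0.33 kept its sign under the other scalings but was 0.01 under quantile normalization.

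Genes of metabolism, division and damage gave differences of mixed size and direction. Aifm1, a mitochondrial flavoprotein that can act in cell death, had 6.73, 6.65 and 6.81 in SRT, against 6.45, 6.28 and 6.25 in SRT-like, without overlap, and differed by 0.40 (95% interval 0.02 to 0.78, left-out range 0.36 to 0.46). Trim35, a TRIM family protein, and Ehhadh, an enzyme of peroxisomal fatty acid oxidation, differed by 0.53 and 0.45, without overlap in either and with left-out ranges of 0.41 to 0.62 and 0.31 to 0.52. The list of 8 fatty acid and mitochondrial genes, which leaves out Ehhadh, had 3 higher in SRT, 5 lower and 0 passed. Its 5 members above background were all lower. The list's median of -0.04 turns to 0.04 under quantile normalization and to 0.11 with abundant-probe centring. All 6 cell cycle genes were higher in SRT and 0 passed, with a median of 0.22 that kept its sign under the other scalings (left-out range 0.14 to 0.34). Among them, Ccnb1, cyclin B1, differed by 0.53 (95% interval -0.24 to 1.31), or 0.17 without SRT-like replicate 2. Cdc25a, a phosphatase that lets cells enter S phase, differed by 0.28 (95% interval -0.18 to 0.74, left-out range 0.063 to 0.43), and E2f1, a factor that switches on replication genes, by 0.33 (95% interval -0.29 to 0.95, left-out range 0.24 to 0.42).

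The p53 and DNA damage genes had a median of 0.02, which turns negative under median centring and quantile normalization, at -0.08 and -0.02 (left-out range -0.12 to 0.16). Of these 7 genes 0 passed, 4 were higher and 3 lower. Bax, a death effector that p53 induces, differed by 0.12 (95% interval -0.39 to 0.63), Chek1, a checkpoint kinase, by -0.10 (-0.47 to 0.26) and Atr, a kinase that senses replication stress, by 0.11 (-0.44 to 0.65). Their left-out ranges were -0.10 to 0.30, -0.18 to 0.04 and -0.048 to 0.22. Bcl2l1, which encodes the survival protein BCL-XL, differed by -0.47 (95% interval -1.15 to 0.20), and by -0.23 without SRT replicate 1 and -0.73 without SRT replicate 3. It had the lowest difference of 14 BCL-2 family and caspase genes, of which 0 passed, 5 were higher in SRT and 9 lower. The median of that list, -0.06, turns to 0.09 with abundant-probe centring (left-out range -0.15 to -0.021).

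Genes of the type I interferon response, which radiation can induce in tumours, overlapped between the modes, with wide intervals. Of 12, 0 passed, 2 were higher in SRT and 10 lower, and the median of -0.12 turns to 0.03 with abundant-probe centring and is -0.41 without SRT replicate 3 and 0.06 without SRT-like replicate 3. Over all 461 probes above background, 302 (65.5%) were lower in SRT. Mx1, an antiviral GTPase, had 6.92, 6.86 and 8.09 in SRT, against 6.96, 7.66 and 8.07 in SRT-like, and differed by -0.27 (95% interval -1.27 to 0.72, left-out range -0.67 to -0.019). Ifit3/3b, a probe that cannot tell the 2 closely related genes apart, differed by -0.32 (95% interval -1.18 to 0.54, left-out range -0.66 to -0.038). Both modes averaged above Nontreated for Mx1, at 7.29 and 7.56 against 5.98. MHC class I and antigen processing genes were lower in 6 of 6 cases, with 0 passed and a median of -0.23, which was -0.38 without SRT replicate 3 and -0.05 under quantile normalization. H2-K1 and H2-D1 lie above a level of 10, where 50 of 52 probes were lower in SRT, and H2-D1, also a class I heavy chain, turns to 0.02 under quantile normalization. Among them H2-K1, a classical class I heavy chain, differed by -0.31 (95% interval -0.81 to 0.20, left-out range -0.48 to -0.21), and by 0 under quantile normalization. That 0 is fixed, because H2-K1 is the highest probe of every sample and quantile normalization gives the highest probes 1 common value.

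**Figure D5:**
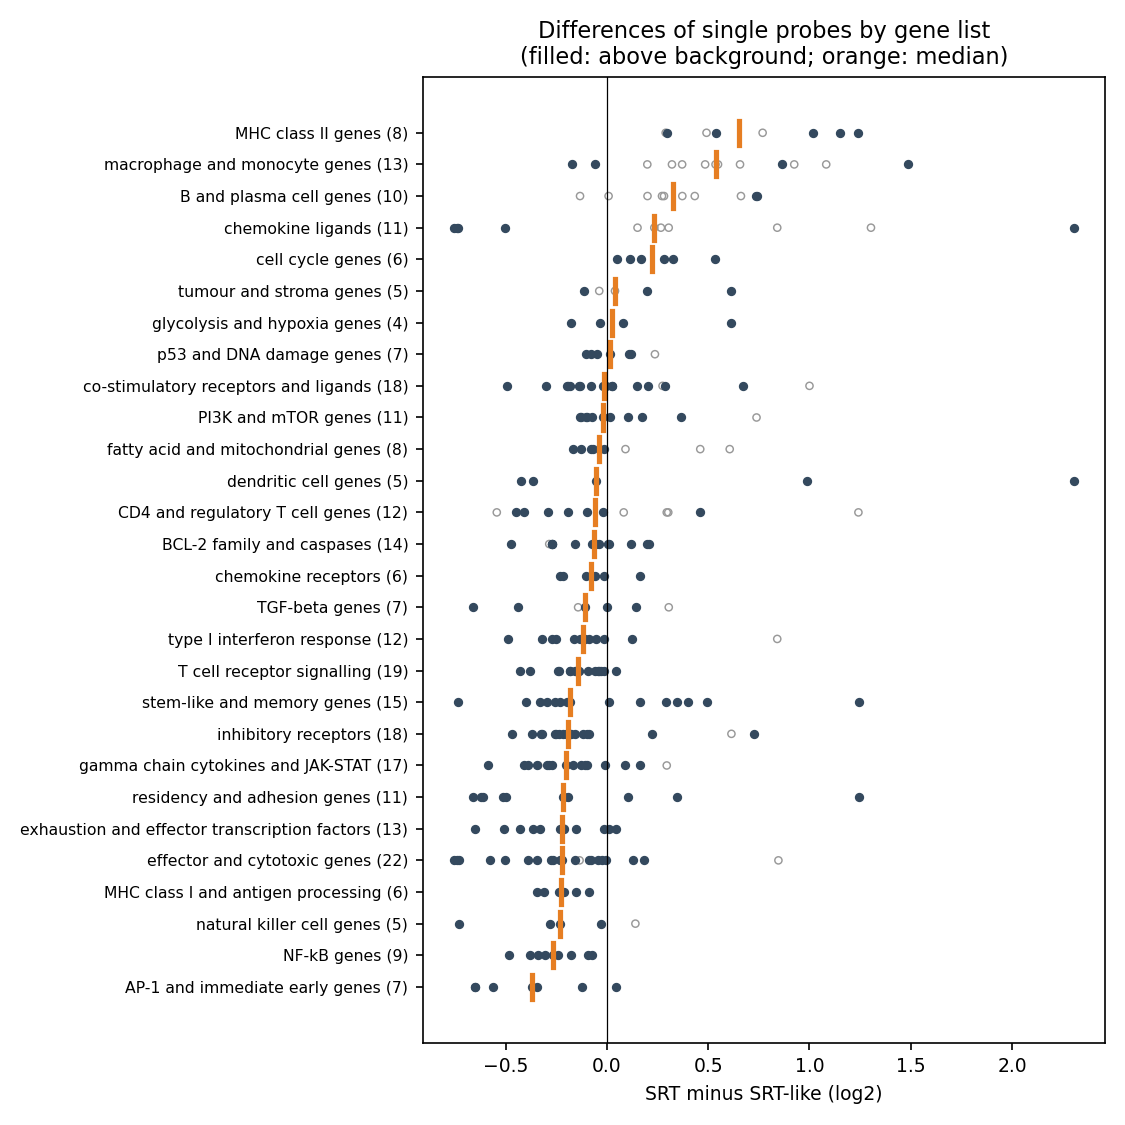
Each row is a gene list with its number of measured genes in brackets, each point a probe's log2 difference, SRT minus SRT-like (x axis), and the orange bar the list's median. MHC class II genes have the highest median, 0.65, and AP-1 and immediate early genes the lowest, -0.37.

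In the same fit, 5 probes (0.647%) passed the test in SRT-like against Nontreated and 0 (0%) in SRT against Nontreated. At an unadjusted p under 0.05 the counts were 84 (10.9%) in SRT against Nontreated and 86 (11.1%) in SRT-like against Nontreated. Those comparisons share the Nontreated samples. The 5 probes were picked by high SRT-like values, which also enter SRT minus SRT-like. That choice tends to make the direct differences negative, and all 5 were negative. The direct differences, SRT minus SRT-like, did not pass for any of the 5. Klf2, a factor that keeps T cells circulating, had 6.52, 6.31 and 7.16 in SRT and 6.66, 6.92 and 7.19 in SRT-like, and differed by -0.26 (95% interval -0.86 to 0.35, left-out range -0.51 to -0.079). Cd80, which engages CD28 or CTLA-4, had 7.63, 8.14 and 8.22 in SRT and 8.04, 8.56 and 8.29 in SRT-like, and differed by -0.30 (95% interval -1.14 to 0.54, left-out range -0.43 to -0.12). Nontreated averaged 5.46 for Klf2 and 6.16 for Cd80, so both modes stood above it. Ccr1, a chemokine receptor of effector cells, differed by -0.23 (95% interval -0.76 to 0.30, left-out range -0.45 to -0.093), and Rsad2, which encodes the interferon-induced protein viperin, by -0.13 (95% interval -0.91 to 0.64, left-out range -0.48 to 0.039). Tnfsf9, given above, differed by -0.49 (95% interval -0.95 to -0.04).

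Set beside the other pairs of groups, SRT and SRT-like lay closest by median size of difference over the probes above background in either of these modes. That median was 0.151 for SRT against SRT-like, 0.211 for SRT against CRT and 0.206 for SRT-like against CRT. It was 0.190 for SRT against Nontreated, 0.213 for SRT-like against Nontreated and 0.221 for CRT against Nontreated. These pairs share samples and no test of the differences among them was made. Probes past the threshold numbered 0 (0%) in SRT against CRT, 0 (0%) in SRT-like against CRT and 24 (3.1%) in CRT against Nontreated. At an unadjusted p under 0.05 the counts were 51 (6.6%) in SRT against CRT, 76 (9.83%) in SRT-like against CRT and 119 (15.4%) in CRT against Nontreated.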

How the data were processed

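Per the labels, the authors normalized the nCounter counts in ROSALIND, and the deposited values are on a log2 scale; the sources used here do not give the version, the background handling or the scaling probes. Within each sample, all antilogs (100%) of the deposited log2 values lay within 0.01 of a whole number of steps, which gave the molecules counted, 161752 to 421066 in these 6 samples. "Normalized molecules" are 2 raised to the deposited value. The number of arrays or lanes limits the precision, and low probes carry the most counting error.

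The test was limma 3.58.1 (R 4.3.3), lmFit and eBayes without trend on all 12 samples with 4 group means, 2-sided, adjusted by Benjamini-Hochberg over 773 probes at 0.05, and tested on simulated data. Of the probe names, 756 matched a RefSeq symbol. A probe is named only by the table's symbol, and close relatives such as granzymes or MHC genes may share probe signal.

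Members and the 28 gene lists were chosen with earlier results of these data known, as were the 32 background probes. Named genes were the 12 higher and 12 lower probes with the smallest p among those above background, up to 3 such members of each list, 10 genes of T cell function and the cell type markers; 18 of 108 genes were added after values were seen: Klf2, Cd80, Rsad2, Lef1, Slamf6, Il7r, Zfp683, Cd69, Itgae, Ccl3, Ccl2, H2-Ab1, H2-DMa, H2-DMb2, H2-Ob, Ciita, Syk and Cd40. Some genes that the rule names are not reported here. The 16 alternatives covered normalization, filters, prior, weights, voom and each replicate left out.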

Additional observations from a re-analysis of the deposited data

How the results depend on the processing

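All 16 alternatives called 0 probes past the threshold, and the smallest adjusted p lay between 0.0826 (trended, robust prior) and 0.999 (quantile normalization). Probes at an unadjusted p under 0.05 numbered 31 to 74 (74 with sample weights, 44 in the fit reported). Their split, higher and lower in SRT, was 32 and 12 as reported, 27 and 30 with median centring, 13 and 18 with quantile normalization, and 51 and 4 with centring on abundant probes, which moved the median of all probes by 0.15. No paired analysis was possible because the labels give no mouse, batch or pair that links samples of the modes. Whatever ran along the sample numbers, 2, 3 and 8 for SRT and 10, 11 and 12 for SRT-like, cannot be told apart from the mode.

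Of the 108 named genes, 84 kept their direction under every alternative that gave a value, 20 reversed under at least 1, and none passed the threshold. The fit on only the 6 samples, the trended prior and the filters keep the group means, so they could not change a difference. Another 4 came to 0 under 1 alternative, and these zeros were fixed in advance. H2-K1 is the highest probe of every sample, which quantile normalization sets to 1 common value. Ccl2, H2-DMb2 and Cd40 lay under the highest background level of any sample in all 6 samples, so raising low values to it gives 0. Reversed values were Ldha -0.014 and Tox -0.084 with median centring. With quantile normalization they were Klrc1 0.057, H2-D1 0.020, Hadhb 0.046, Lag3 0.023, Tigit 0.042 and Ciita -0.046. With centring on abundant probes they were Cdh1 0.035, Chek1 0.045, Inpp5d 0.018, Acsl4 0.021, Hadhb 0.072 and Rsad2 0.016. With sample weights they were Atr -0.0017 and Prf1 -0.0080. Over the fits that left out 1 replicate, the ranges were Inpp5d -0.29 to 0.015, Tox -0.10 to 0.20, Rsad2 -0.48 to 0.039, Il7r -0.62 to 0.045, Eomes -0.42 to 0.013, Pecam1 -0.091 to 0.34, Cxcr6 -0.41 to 0.0061, Bax -0.10 to 0.30, Atr -0.048 to 0.22, Cdh1 -0.53 to 0.094, Chek1 -0.18 to 0.040 and Ciita -0.20 to 0.74. The cause was not tested. Of 28 lists, the medians of 13 kept their sign under the 3 other scalings and 15 turned. Low probes are limited by counting: only 10.6% of the probes not above background had an interval within 1 log2 unit of 0.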

Other observations

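Some genes of other roles, none of them past the threshold in limma, were higher in all SRT than in all SRT-like samples at levels near background, and all were named after values were seen. Syk, a kinase of B cell and myeloid receptors, had log2 values of 4.87, 4.66 and 5.30 in SRT, against 3.70, 4.09 and 3.86 in SRT-like, and was above background in 2 of 3 SRT and 0 of 3 SRT-like samples. Its difference was 1.06 (95% interval 0.26 to 1.87), and 0.10 with low values raised to the background level. Cd40, the receptor through which T cells license antigen-presenting cells, had 4.65, 4.61 and 4.66 in SRT, against 2.89, 3.83 and 4.20 in SRT-like, and was above background in 1 of the 6 samples. Ccl2, a chemokine that draws monocytes, had 3.99, 4.44 and 4.24 in SRT, against 2.30, 2.92 and 3.54 in SRT-like, and was above background in 0 of the 6 samples, where 19, 24 and 12 molecules were counted in SRT and 8, 8 and 12 in SRT-like.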
